A study of Homo sapiens with 12 samples.

Results

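The m6A landscape of trastuzumab-sensitive BT474 cells was described from the 3 lists of m6A peaks made from these cells. BT474 is an established human breast cancer line of luminal type with an amplified ERBB2 gene, and trastuzumab (Herceptin) is an antibody against the ERBB2 receptor. The members were 6 of the 12 libraries of the series, chosen by their titles as sensitive cells: 3 libraries of RNA fragments pulled down with an antibody against N6-methyladenosine (IP) and 3 input libraries of RNA that was not pulled down. Each list holds the peaks of 1 IP library against its input, with 29063, 28122 and 26028 peaks in replicates 1, 2 and 3. All cells shared the BT474 background and one routine culture medium with serum. The labels name no drug exposure of these cells, and nothing says that the replicates came from separate cultures, so their spread may be technical.

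N6-methyladenosine is the most common internal modification of messenger RNA. It is written during transcription by a complex around METTL3 and METTL14, can be removed by FTO and ALKBH5, and is bound by YTH domain proteins that steer splicing, translation and decay of the transcript. In mammalian messenger RNA it is known to gather around the stop codon, in the 3′ UTR and in long internal exons. A peak in such a list marks a stretch of transcript with more IP than input signal, and its fold enrichment is the authors' value for that excess.

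The lists repeat a peak for every isoform it falls on, and 1 stretch of RNA can therefore fill several rows. Rows sharing at least 1 exonic base on a strand were also joined into merged regions. Replicates 1, 2 and 3 came to 10929, 10655 and 9845 merged regions, on 6388, 6281 and 5980 genes. The median fold enrichment of a peak was 3.39, 3.55 and 3.54, and 7.61%, 9.11% and 8.52% of peaks had a fold above 10. Replicate 3 had the shortest list by each of the 3 counts. Depth per library is unknown, since the lists hold no read totals, and the number of peaks depends on it.

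Markers of luminal epithelium carried m6A peaks, and those of other cell types mostly did not. Of 16 luminal markers, 14 had a peak in all 3 libraries, beside 25% of nuclear protein-coding genes. That share also stands beside the next counts. Among the 14 were ERBB2, GATA3, FOXA1, the progesterone receptor gene PGR and the keratin genes KRT8, KRT18 and KRT19. These keratin genes had folds below the list medians at their strongest recurring region. KRT8 had 1.62, 2.31 and 1.53, KRT18 1.39, 1.53 and 1.43, and KRT19 1.97, 1.83 and 1.37. No peak was listed for GRB7, the neighbour of ERBB2, or for the oestrogen receptor gene ESR1. Of 7 basal markers, 0 had a peak in all 3 libraries, and OXTR had one in 1 library. Among 7 fibroblast markers, COL1A1 had a peak in all 3 libraries and VIM in 1. None of 7 leukocyte markers and none of 4 endothelial markers had a peak in any of the 3 libraries. The lists of other cell types are short, so at the share of 25% few peaks would be found there as well. A peak shows that a transcript was there, while a gene without a peak may be expressed and not methylated, or too low to be called.

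Most genes with m6A carried it in every library. At least 1 peak was listed for 7393 genes in any of the 3 libraries, and 5095 of them (68.9%) had a peak in all 3, 1066 in 2 and 1232 in 1. Seen against 20043 nuclear protein-coding genes of the human gene table, 5016, or 25%, had a peak in all 3 libraries. Of the genes listed in replicate 1, 87.4% were also listed in replicate 2 and 84.7% in replicate 3. Of those of replicate 3, 90.5% were listed in replicate 1 and 89.6% in replicate 2. For 4832 genes, 1 merged region carried a peak in each library, so that 263 of the 5095 genes shared the gene but no single stretch.

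Stretches of RNA recurred less often than genes. Joined over the 3 lists, there were 13932 merged regions, of which 6690 (48.0%) held a peak in all 3 libraries, 2403 in 2 and 4839 in 1. Regions in all 3 libraries made up 63.9% of the regions present in replicate 1, 66.9% in replicate 2 and 72.4% in replicate 3. They were long and had small p-values. Their longest peak had a median of 356, 329 and 301 exonic bases in the 3 lists, against 120, 91 and 91 for regions found in that library alone. On a scale from 0 to 100 for the rank of a peak's p within its list, with 100 for the smallest p, their best peak stood at a median of 66.8, 64.9 and 62.3, against 16.2, 15.8 and 15.01 for regions found in 1 library. By rank of fold the groups were closer, at 64.2, 62.6 and 62.02 against 51.2, 57.3 and 59.1. The best peak of a region with more rows ranks higher by construction.

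Coding sequence and 3′ UTR held most peaks. Peaks within the coding sequence made up 46.0%, 46.1% and 46.3% of the rows in replicates 1, 2 and 3. For peaks lying in the 3′ UTR alone the shares were 28.3%, 28.8% and 28.4%, and for peaks with both coding and 3′ UTR bases they were 17.9%, 17.2% and 17.5%. Only a small part touched the start of the transcript. Peaks across the 5′ UTR and the coding sequence were 4.69%, 4.73% and 4.75%, and those within the 5′ UTR 2.69%, 2.79% and 2.59%. The 3 libraries differed by less than 1 percentage point in each of these classes. Rows weigh genes with many isoforms more. With merged regions in place of rows, the mean share within the coding sequence was 39.3% and that within the 3′ UTR 36.5%.

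Regions over the end of the coding sequence recurred most among the large classes. Of 1953 merged regions spanning coding sequence and 3′ UTR, 1491 (76.3%) had a peak in all 3 libraries, against 48.0% of all regions. The share was 57.8% of 486 regions spanning 5′ UTR and coding sequence, 43.7% of 5279 regions within the 3′ UTR, 43.2% of 5621 within the coding sequence and 26.6% of 560 within the 5′ UTR. All but 1 of the 33 regions touching 5′ UTR, coding sequence and 3′ UTR recurred. Lengths ran in a similar order. The median peak spanning coding sequence and 3′ UTR had 360, 357 and 359 exonic bases, against 211, 210 and 210 within the coding sequence, 181, 180 and 181 within the 3′ UTR and 150, 121 and 150 within the 5′ UTR. The part of length in recurrence was not tested. The class of a region can hang on the isoform: of the 6690 recurring regions, 4815 (71.97%) had the same class in every row and 1875 had 2 or more.

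**Figure D1:**
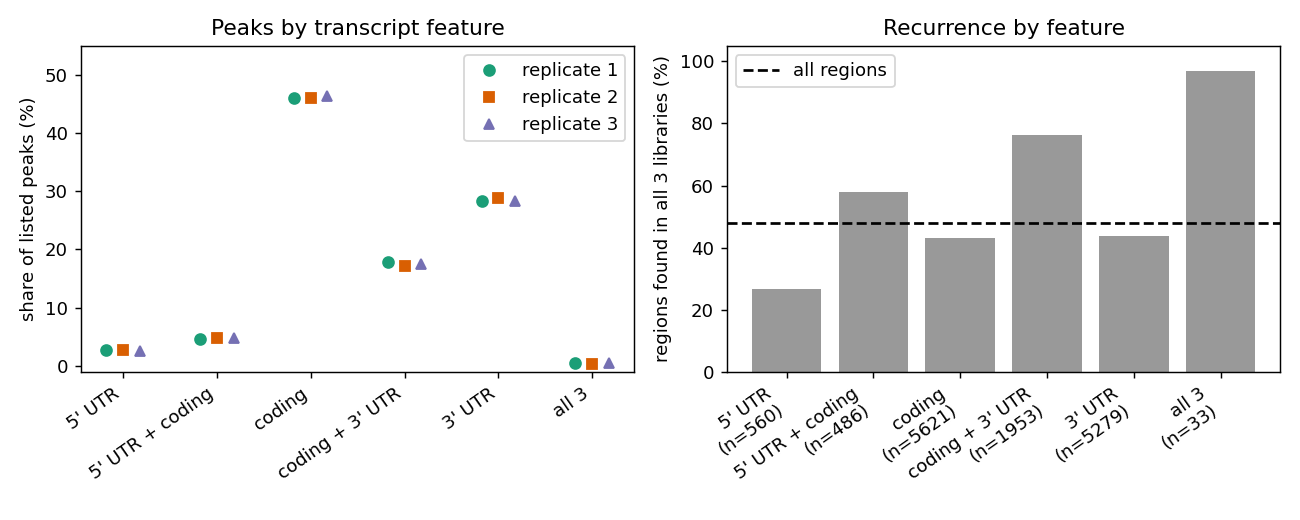
Share of listed peaks in each transcript feature (left, y axis in percent, 1 symbol per library) and share of merged regions of each feature found in all 3 libraries (right, y axis in percent, dashed line for all regions, number of regions under each bar). The symbols of the 3 libraries lie close together in every class, and regions spanning coding sequence and 3′ UTR reach 76.3% against 48.0% for all regions.

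Fold enrichment differed by feature within each list. Peaks spanning coding sequence and 3′ UTR had a median fold of 3.73, 3.84 and 3.80 in the 3 lists, against 3.19, 3.36 and 3.40 for peaks within the coding sequence. The difference of medians was 0.47 ± 0.07 (SD, n = 3), with the spanning peaks higher in 3 of 3 libraries (exact sign-flip permutation test, two-sided, p = 0.25, the smallest p that 3 libraries allow). Peaks within the 3′ UTR stood between them, at 3.49, 3.65 and 3.54. Those within the 5′ UTR had the highest median of the 5 larger classes in each list, at 3.94, 3.94 and 4.72, although they were the shortest. Peaks across the 5′ UTR and the coding sequence had medians of 3.55, 3.85 and 3.81.

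Among genes with a recurring region, 3 patterns covered most. Of the 4832 such genes, 1369 (28.3%) had recurring regions only within the 3′ UTR, 1255 (26.0%) only within the coding sequence and 1001 (20.7%) only across the end of the coding sequence. A recurring region touching the 3′ UTR was present on 3327 genes (68.9%) and one touching the 5′ UTR on 455 (9.42%). On 198 genes (4.10%), recurring regions lay only within the 5′ UTR or across the start of the coding sequence. Thus few genes carried their m6A peaks at the 5′ end alone.

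Most genes carried a single recurring region. Of the 5095 genes with a peak in all 3 libraries, 3409 (66.9%, 95% exact Clopper-Pearson interval 65.6 to 68.2, which covers counting error only) had 1 merged region found in all 3, and 1423 (27.9%) had 2 or more. Exactly 2 were found on 1058 genes, 3 on 270, 4 on 63, 5 on 22 and 6 or more on 10. Several regions went with long transcripts. In the quartile of genes with the longest listed transcripts, from 5487 to 24828 bases, 43.8% had 2 or more such regions. In the quartile with the shortest, from 207 to 2440 bases, 12.0% did.

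The genes with the most recurring regions code for large proteins, many of them nuclear. MUC5B, which encodes a gel-forming mucin, and BOD1L1, which protects stalled replication forks, had 8 each, all within the coding sequence. The chromatin remodeller gene CHD3 and MKI67, which encodes the proliferation antigen Ki-67, had 7 each. In MKI67, 5 of them lay within the coding sequence, 1 across its end and 1 within the 3′ UTR, over a longest listed transcript of 12678 bases. SETD5, the nuclear receptor coactivator NCOA6, TNRC18, the Golgi protein gene GOLGA3 and C6orf132 had 6 each. The 6 regions of TNRC18 were all coding, while 4 of the 6 of GOLGA3 lay within the 3′ UTR. None of these genes had a recurring region touching the 5′ UTR, beside 9.42% of all genes with a recurring region. At that share few would be found in so short a list.

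**Figure D2:**
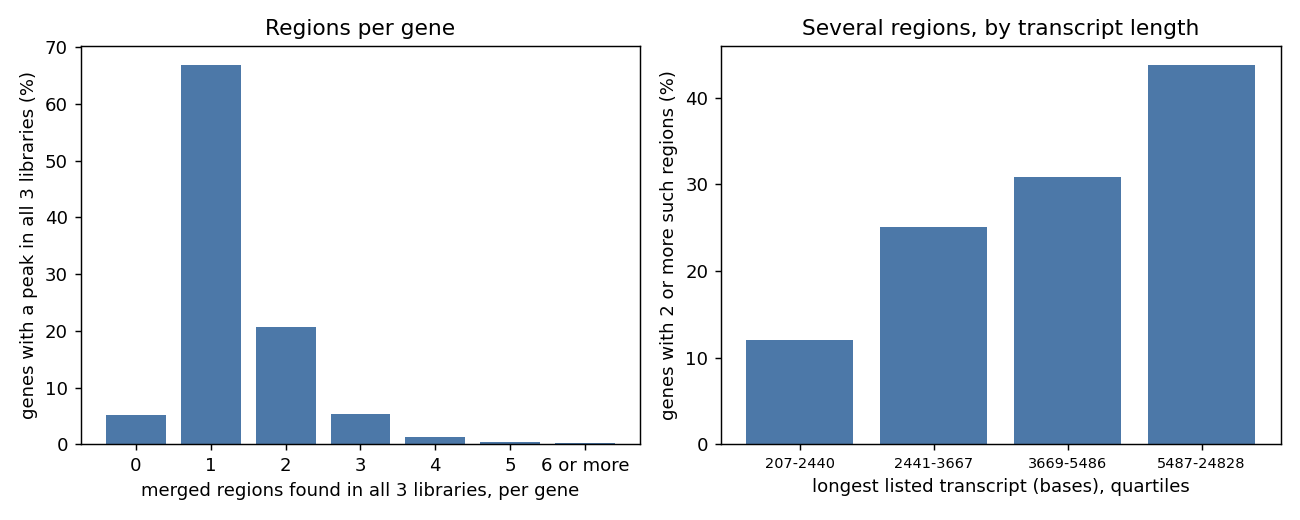
Number of merged regions found in all 3 libraries per gene (left, y axis as percent of the 5095 genes with a peak in all 3 libraries) and percent of genes with 2 or more such regions by quartile of the longest listed transcript in bases (right). A single region is the commonest case at 66.9%, and the share with several regions is 12.0% in the shortest and 43.8% in the longest quartile.

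About 1 peak in 3 crossed an exon junction. Peaks with more than 1 exonic block made up 34.3%, 32.7% and 34.1% of the rows in replicates 1, 2 and 3. Those with exactly 2 blocks were 16.2%, 15.5% and 15.8%, and those with over 5 blocks 3.05%, 2.57% and 2.99%. Of the peaks with several blocks, 26.2%, 26.1% and 26.3% had a block shorter than 20 bases. When at least 2 blocks had to reach 20 bases, 30.7%, 29.3% and 30.6% of peaks still crossed a junction. By feature, 49.2% ± 1.3 of coding peaks and 36.4% ± 1.6 of those spanning coding sequence and 3′ UTR had several blocks, as did 0.72% ± 0.01 of 3′ UTR peaks (SD, n = 3 each). Merged regions, in which isoforms count once, crossed a junction less often, with a mean share of 23.8%.

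Peaks over several exons had lower folds than peaks in 1 exon. Their median fold was 3.02, 3.11 and 3.15 in the 3 lists, against 3.64, 3.80 and 3.78 for peaks with 1 block. The difference was -0.65 ± 0.04 (SD, n = 3), lower in 3 of 3 libraries (exact sign-flip permutation test, two-sided, p = 0.25, the smallest possible). The median was also lower within each of the 3 features compared, namely coding sequence, coding sequence with 3′ UTR, and 3′ UTR. Coding peaks had a median fold of 2.83, 2.96 and 2.98 with several blocks, against 3.54, 3.78 and 3.83 with 1 block. For peaks spanning coding sequence and 3′ UTR, the values were 3.29, 3.40 and 3.47 with several blocks, against 4.08, 4.19 and 4.0 with 1.

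**Figure D3:**
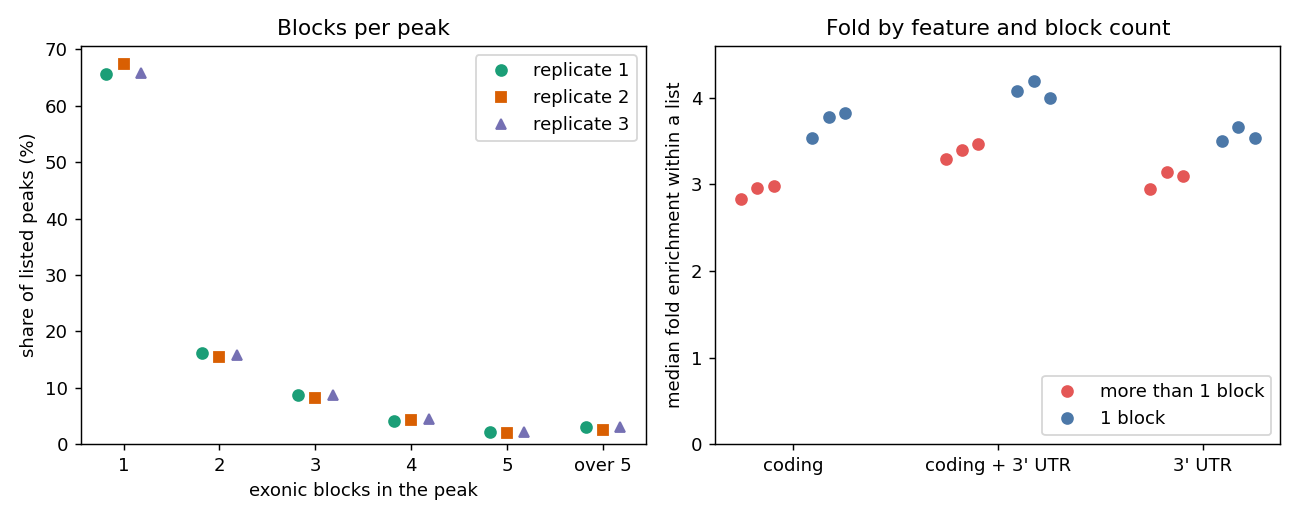
Share of listed peaks by number of exonic blocks (left, percent, 1 symbol per library) and median fold enrichment within each list for peaks with more than 1 block (red) and with 1 block (blue) in 3 features (right, 1 point per library). In the right plot every red point lies below the blue points of the same feature.

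The peaks with the most blocks joined many exons. MYH9, the heavy chain gene of non-muscle myosin IIA, had a region of 21 blocks in each library (chromosome 22, 36678223 to 36697662), which reached from the coding sequence into the 3′ UTR. It covered 3736, 3736 and 3766 exonic bases of a transcript of 7501, at folds of 5.18, 5.05 and 4.83. That region was also the longest by the smallest of its 3 lengths. The hydroxylase gene ASPH had 17, 15 and 16 blocks, and COL7A1, which encodes the collagen of anchoring fibrils, 15, 17 and 14. GOLGA2, a Golgi matrix protein gene, had 14, 13 and 14 blocks, and the ribosome biogenesis gene KRI1 had 13 in each. Other long regions lay in 1 or a few large exons. A coding region of the mucin gene MUC6 covered 3329, 3269 and 3299 bases in 3 blocks. In ANKRD11, a chromatin regulator gene, 1 coding block spanned 3951, 3412 and 3173 bases. CEP250, a centrosome linker gene, had 3180, 3090 and 3180 bases in 5 to 7 blocks, and RBBP6, a ubiquitin ligase gene, 2930, 3085 and 2995 bases in 2.

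The 10 genes first by fold rank had their strongest region mainly in the 3′ UTR. Regions with a peak in all 3 libraries were ranked by the lowest of their 3 within-list ranks of fold. Of the first 10 genes, 8 had that region within the 3′ UTR, beside 34.5% of all regions found in all 3 libraries. The lean to the 3′ UTR was smaller among all peaks with a high fold, counted as rows. With a fold of at least 5, the mean shares were 37.4% within the coding sequence and 33.6% within the 3′ UTR. Among all rows they were 46.1% and 28.5%. The coding sequence thus still held more of the peaks with a high fold. C12orf65 (now MTRFR), which encodes a mitochondrial translation rescue factor, stood first, with folds of 293, 310 and 275 in replicates 1, 2 and 3. Its region ran from the last coding bases into the 3′ UTR (chromosome 12, 123738487 to 123742506). The 3′ UTR region of KCTD20 (chromosome 6, 36457844 to 36458771) had folds of 246, 263 and 180. SERINC3, a membrane protein gene, had 183, 334 and 104 over a 3′ UTR region of 955 to 1015 bases. GINM1 stood at 205, 205 and 166. MIEF1, whose product recruits the mitochondrial fission factor DRP1, had 163, 157 and 127. The zinc finger gene ZNF669 had 149, 251 and 142 across the end of its coding sequence. Folds of NME6 were 187, 142 and 99.9, and those of the zinc finger gene ZNF160 120, 149 and 95.9. CWC25, a spliceosome factor gene, had 268, 180 and 85.1, and the chaperone gene DNAJC22 150, 129 and 109. All 10 still ranked first when peaks with a deposited p of 1e-05 or more were left out. That filter shows little, since it could only take away competitors. Fold ranks were kept from the full lists, and the best p of each of the 10 regions was at most 5.01e-26 in every library. Without replicate 1 or replicate 2, 8 of them did, and without replicate 3, 6 did. Not 1 of them was among the first 10 by rank of p.

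High folds took a limited set of values. Between 15 and 100, 86.0% of 1148 folds in replicate 1, 85.8% of 1201 in replicate 2 and 87.1% of 1010 in replicate 3 lay within 0.06 of a whole multiple of 1 step per library. The step was 1.42, 1.48 and 1.35, chosen in each library as the one that put most of these same folds on the grid. The tolerance covers 8.48%, 8.12% and 8.89% of the scale. Those shares apply to a step fixed in advance, so a fitted step would exceed them to some degree on any folds. Numbers of IP reads divided by 1 input read and scaled by 1 factor per library would fall on such a grid. The reads were not analysed here, and the part of input depth in these folds was not tested. In replicate 3, a fold of 16.2 recurred at FOSB, SETD1B, CDK4, MDM2, KIF14 and RNF168.

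The smallest p-values marked other genes. At 1 region each, 32 genes had a p listed as 0 in all 3 libraries, 12 of them genes of the mitochondrial genome. The other 20, many of them known for abundant transcripts, were ERBB2, the cytoskeletal actin gene ACTB, the stress transcription factor ATF4, the chaperone genes CALR, HSP90AA1 and HSP90AB1, the nucleolar genes NPM1 and NCL, HNRNPA2B1, HNRNPU, LUC7L3, PTMA, SET, HMGN2, FTH1, VCP, RPL19, PPDPF, IGFBP5 and IER5L. In 13 of the 20, the region included both coding sequence and 3′ UTR, and in 14 it had several blocks in every library. Of all regions found in all 3 libraries, 22.3% spanned coding sequence and 3′ UTR and 0.48% touched all 3 features. Of all regions joined over the 3 lists, 21.0% had several blocks in most of their rows, a different measure. Their folds ran from 1.57 to 46.7 and were mostly ordinary for their list, at a median fold rank of 54.2, 53.6 and 59.6 on the scale from 0 to 100. RPL19, a ribosomal protein gene, stood at 1.68, 1.68 and 1.57, and ACTB at 2.19, 2.19 and 2.10. IER5L was the exception, with 46.7, 27.6 and 21.2 at the end of its coding sequence (chromosome 9, 131938875 to 131939827).

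**Figure D4:**
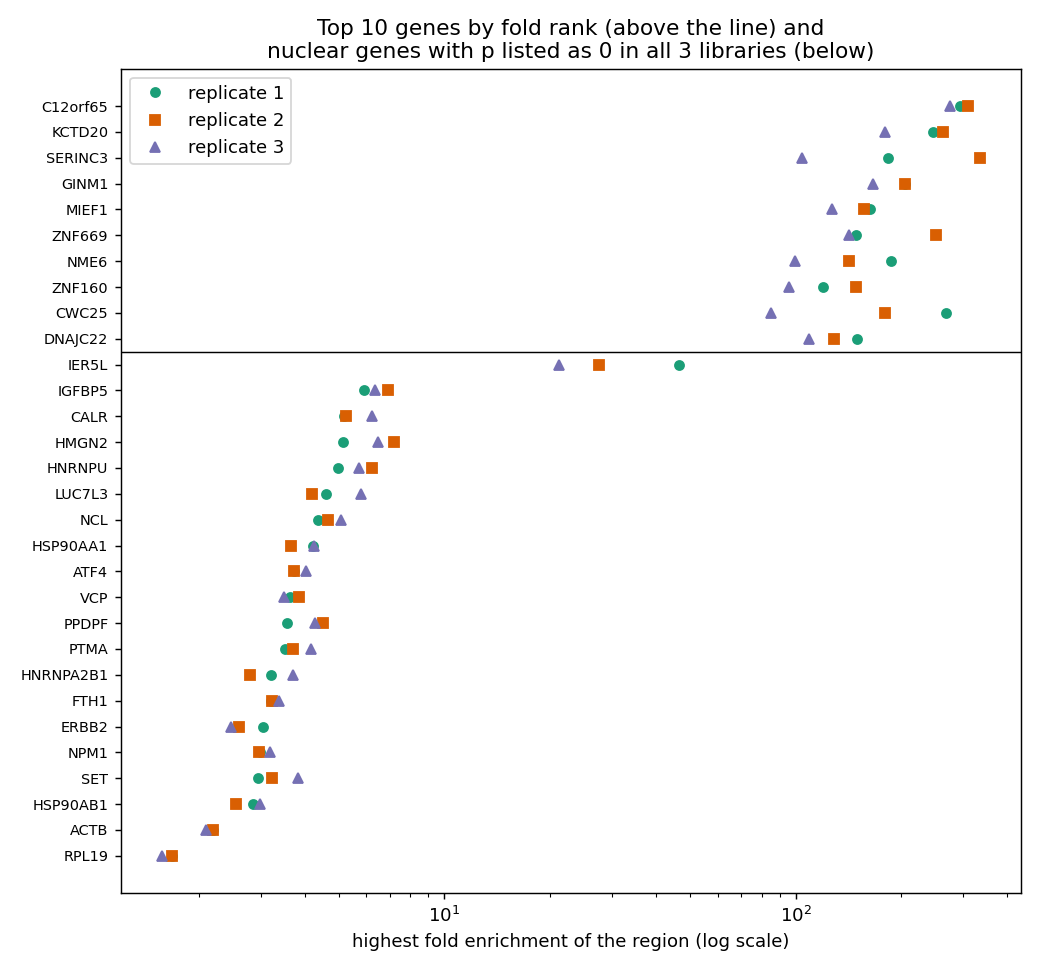
Highest fold enrichment of the region in each library (x axis, log scale, 1 symbol per library) for the 10 genes that rank first by fold (above the line) and the 20 nuclear genes with a p listed as 0 in all 3 libraries (below the line). The genes above the line range from 85.1 to 334, and those below it from 1.57 to 46.7.

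At the 5′ end and within the coding sequence, other genes led; those named in this paragraph were chosen after their values were seen. In the 5′ UTR, AES (now TLE5), a Groucho family regulator gene, had folds of 118, 157 and 82.4 (chromosome 19, 3062257 to 3062555). GGPS1, the geranylgeranyl diphosphate synthase gene, had 150, 82.8 and 64.8, and the potassium channel gene KCNJ11 35.4, 31.0 and 36.5. Across the start of the coding sequence, ARID1A, which encodes a subunit of the SWI/SNF remodelling complex, led with 45.3, 53.2 and 66.2 (chromosome 1, 27022614 to 27023375). MBD2, a reader of methylated DNA, had 26.9, 65.0 and 64.8 there, and the phosphoinositide kinase gene PIP4K2B 24.1, 89.4 and 83.1. Within the coding sequence, KCTD1 had 65.1, 50.3 and 33.8, and BPTF, a subunit of the NURF remodeller, 31.1, 38.4 and 32.4. The zinc finger gene ZNF91 had higher folds, 126, 91.6 and 68.9, at a region whose rows fell into 3 classes. That region was grouped with those spanning coding sequence and 3′ UTR, although by the gene's own rows it would count as coding. For some of these regions the feature differed between rows, and the commonest is given. The rows of GGPS1, ARID1A and MBD2 fell into 2 classes and those of KCNJ11 into 3. Thus folds above 20 in every library occurred in each of these features.

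All 13 protein genes of the mitochondrial genome had a peak in all 3 libraries. For 10 of them a peak covered the whole annotated transcript in every library: MT-ATP6, MT-ATP8, MT-CO2, MT-CYB, MT-ND1, MT-ND3, MT-ND4, MT-ND4L, MT-ND5 and MT-ND6. MT-ND4, a complex I subunit gene, had folds of 152, 170 and 61.2, and MT-CYB, the cytochrome b gene, 64.9, 74.0 and 35.9. Some differed widely between libraries. MT-ND2 had the highest fold of any peak in replicate 1, 1580, against 23.5 and 19.3 in replicates 2 and 3. MT-ND1 had 121 in replicate 1, against 5.67 and 4.95 in the others. MT-CO3 had 23.9, 1.55 and 1.62. In these 3 genes replicate 1 stood apart, as it did at the highest peak of MT-CO1, with 31.9 against 2.01 and 2.3. Replicate 3 was the lowest at MT-ND3, with 45.9, 93.6 and 12.6, and at MT-ND6, with 83.6, 130 and 14.4.

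Many, but not all, of the genes that write, remove and read m6A carried peaks themselves. In the writer group, 8 of 11 genes had a peak in all 3 libraries, against 25% of nuclear protein-coding genes; METTL3, RBM15B and ZCCHC4 had none in any. ZC3H13, a scaffold of the writer complex, had folds of 9.62, 6.84 and 12.0 over a long coding region (chromosome 13, 46538067 to 46563059). METTL14, the partner of METTL3, had 3.72, 3.94 and 13.5 in its 3′ UTR. The adaptor gene WTAP had 3.59, 5.36 and 3.54 around the end of its coding sequence. KIAA1429 (now VIRMA), another writer subunit, had 3.51, 5.33 and 8.10, and RBM15 7.19, 5.67 and 4.86, both in coding sequence. CBLL1 had 4.75, 6.79 and 8.40. METTL16, a separate m6A methyltransferase gene, had 6.70, 9.32 and 10.1. METTL5, which modifies ribosomal RNA, had a peak in each library but no region in all 3. Among erasers and readers, 7 of 14 had a peak in all 3 libraries. The eraser gene ALKBH5 had 4.03, 7.39 and 9.26 in its coding sequence (chromosome 17, 18087613 to 18087881). FTO had a peak only in replicate 2, at 29.6. The reader genes YTHDF2, YTHDF3 and YTHDF1 had 4.73, 4.43 and 5.03, then 3.89, 7.33 and 4.59, then 2.43, 2.01 and 2.08. HNRNPC, HNRNPA2B1 and RBMX also had one in all 3, and YTHDC1, YTHDC2, IGF2BP1, IGF2BP2, IGF2BP3 and FMR1 in none.

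ERBB2, ERBB3 and EGFR, receptors of the ERBB family, each had 1 recurring region, across the end of the coding sequence. ERBB2 had folds of 3.05, 2.61 and 2.47 over 958, 959 and 899 bases (chromosome 17, 37883957 to 37884915). ERBB3 had 2.17, 3.0 and 2.58, and EGFR 4.87, 3.03 and 3.60. Of 14 receptor and adaptor genes, 9 had a peak in all 3 libraries, beside 25% of nuclear protein-coding genes, GRB2, SHC1 and GAB2 in 2, and ERBB4 and CBL in none. SOS1, a guanine nucleotide exchange factor for RAS, had 6.30, 7.39 and 6.05. In the PI3K, AKT and mTOR list, 10 of 21 genes had a peak in all 3 libraries, beside the same 25%. FOXO3, a transcription factor that AKT keeps out of the nucleus, had 3 recurring regions, the strongest in the 3′ UTR at 36.8, 17.1 and 14.4. The regulatory subunit gene PIK3R2 had 14.4, 18.5 and 6.52, and PIK3CA, the catalytic subunit, 7.36, 8.35 and 6.47. No peak was listed for PIK3CB, AKT1, INPP4B, TSC2 or FOXO1. In the RAS and ERK list, 9 of 19 had a peak in all 3, again beside 25%. SPRED2, an inhibitor of the pathway, had 15.3, 44.3 and 18.2, MAPK3 7.08, 7.88 and 7.43, and HRAS 4.35, 5.14 and 5.08. In replicate 1 the MAPK3 region had only 60 bases and a deposited p of 0.00155. NRAS, BRAF, MAP2K1 and SPRY2 were among those with none.

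Immediate early genes, which are switched on within minutes of a stimulus and have short-lived transcripts, often carried peaks. Of 20, 15 had a peak in all 3 libraries, beside 25% of nuclear protein-coding genes, a share that also stands beside the next counts, and FOSL1, EGR2, IER3 and ATF3 had none. MYC had folds of 7.90, 16.3 and 7.09 across the end of its coding sequence (chromosome 8, 128752932 to 128753674). IER5 stood at 7.08, 7.39 and 18.9, and FOSB at 18.4, 7.02 and 16.2. JUN had 5.24, 5.49 and 6.37, and FOS 3.64, 3.44 and 3.81. Of 17 SOCS and JAK-STAT genes, 8 had a peak in all 3. STAT3 had 31.9, 42.9 and 9.45 in its 3′ UTR, while the suppressors SOCS6 and CISH had 6.31, 10.2 and 8.29, then 7.28, 7.02 and 5.08. SOCS1, SOCS2, SOCS3, SOCS7, JAK1, JAK2, STAT5A and STAT5B had none. Of 22 Notch and Wnt genes, 15 had a peak in all 3 and DLL1 and AXIN2 had none. ZNRF3, a negative regulator of Wnt receptors, had 15.6, 12.6 and 23, and the ligand gene JAG2 6.84, 6.33 and 8.55. GSK3B, a kinase of the destruction complex, had 5.82, 8.50 and 9.45 in its 5′ UTR.

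Genes of chromatin regulators often had several regions. Beside each count of genes with a peak in all 3 libraries stands the share of 25% of nuclear protein-coding genes. Of 17 SWI/SNF subunit genes, 10 had a peak in all 3 libraries and 9 of these had 2 or more recurring regions. SMARCC1 had 4.82, 5.30 and 5.21 at its strongest region, and SMARCC2 6.14, 5.36 and 11.1; ARID1A is given above. SMARCB1, SMARCD1, SMARCD2, SMARCD3, DPF2 and ACTL6A had none. Of 27 histone lysine methyltransferase and demethylase genes, 20 had a peak in all 3, and 15 had 2 or more recurring regions. SETD1A had 4 such regions, the strongest at 39.6, 26.6 and 35.1, SETD1B had 4, at 42.5, 28.1 and 16.2, and KDM6B had 3, at 9.02, 9.82 and 11.4. Of 13 nuclear receptor coactivators and corepressors, 10 had a peak in all 3, and 9 had 2 or more recurring regions; HDAC3 had no peak. EP300 had 4, with 7.73, 7.06 and 7.69 at the strongest, NCOA2 9.63, 7.5 and 8.25, and MED13 7.43, 8.40 and 7.32. For comparison, 27.9% of all genes with a peak in all 3 libraries had 2 or more recurring regions. In the quartile of genes with the longest listed transcripts, 43.8% did. The part of transcript length in the counts of these lists was not tested. Of 23 splicing factor genes, 18 had a peak in all 3 and SRSF3, SRSF7, HNRNPK and PTBP1 had none. SF3B1 had 25.5, 29.6 and 11.5, SRSF4 6.42, 7.11 and 6.06, and U2AF2 5.61, 7.39 and 13.5.

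Cell cycle and survival genes differed in how many were listed. Of 20 cell cycle genes, 5 (25%) had a peak in all 3 libraries, the same share as all nuclear protein-coding genes. CDK4 had folds of 46.7, 37.0 and 16.2 in its 3′ UTR, E2F3 6.18, 5.56 and 5.40, and the phosphatase gene CDC25A 3.96, 5.58 and 5.52. CCND1 and CDK2 had a peak in 1 library, as did RBL2 and CCNA2. No peak was listed for CCND2, CCND3, CCNE1, CCNE2, CDK6, CDKN1A, RB1, RBL1, E2F1, CCNB1 or PLK1. Of 18 genes of p53, the BCL2 family and DNA repair, 12 had a peak in all 3, and BAK1, ATM and ATR had none. MDM2, the ubiquitin ligase for p53, had 11.3, 20.7 and 16.2, the pore-forming BAX gene 8.02, 14.4 and 8.33, and BRCA1 5.46, 35.5 and 31.1, all in the 3′ UTR. The MDM2 region was weak by deposited p, at 3.55e-05, 2.63e-05 and 0.000263.

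Housekeeping lists ranged from below to above the share of all genes. Except for glycolysis they were taken by the start of the symbol, so they also hold relatives that are no subunits, such as the recombination factor gene PSMC3IP in the proteasome list, RPL7L1 in the ribosomal list and the assembly factor gene NDUFAF7. A peak in all 3 libraries was found for 22 of 100 genes of oxidative phosphorylation encoded in the nucleus (22.0%), 28 of 92 genes of the cytosolic ribosomal list (30.4%), 5 of 19 glycolysis genes (26.3%) and 15 of 40 genes of the proteasome list (37.5%), beside 25% of nuclear protein-coding genes. Mitochondrial ribosomal protein genes reached 30 of 77 (39.0%). RPL37, a ribosomal protein gene, had 8.19, 5.26 and 7.83, and its relative RPL7L1, a ribosome biogenesis factor, 66.5, 46.3 and 59.4. The complex I gene NDUFV3 had 26.9, 28.1 and 28.4 and the complex III gene UQCRB 32.6, 31.0 and 25.7. GPI, a glycolytic enzyme gene, had 21.2, 37.0 and 27.0, and the glucose transporter gene SLC2A1 3.68, 3.52 and 3.0 in its 5′ UTR. No peak was listed for SLC2A4, PFKL, PFKM, PFKP, ALDOA, ALDOC, TPI1, PGK1, PGAM1, ENO1, ENO2 or LDHA. Some of these, such as ENO1 and ALDOA, are highly expressed in most growing cells; RNA levels were not analysed here.

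Among gene families taken by symbol, zinc finger genes stood above the 25% of all nuclear protein-coding genes, keratins below it and ubiquitin-specific proteases close to it. A peak in all 3 libraries was found for 252 of 518 ZNF genes (48.6%), 20 of 44 kinesin genes (45.5%), 35 of 87 RNF genes (40.2%), 20 of 78 ubiquitin-specific protease genes (25.6%), 74 of 398 solute carrier genes (18.6%), 6 of 55 keratin genes (10.9%) and 3 of 71 replication-dependent histone genes (4.23%). ZNF91 had folds of 126, 91.6 and 68.9. The kinesin gene KIF1B had 80.7, 51.7 and 37.8, USP22 26.2, 54.9 and 38.8, RNF220 15.9, 19.7 and 14.2, and the sugar transporter gene SLC50A1 34.4, 64.7 and 28.9. KRT15 had 21.2, 17.7 and 23, with p-values of 1.66e-05, 0.000141 and 4.90e-06. Families differ in how many members the cells express, so a low share can come with few expressed members, which was not tested.

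**Figure D5:**
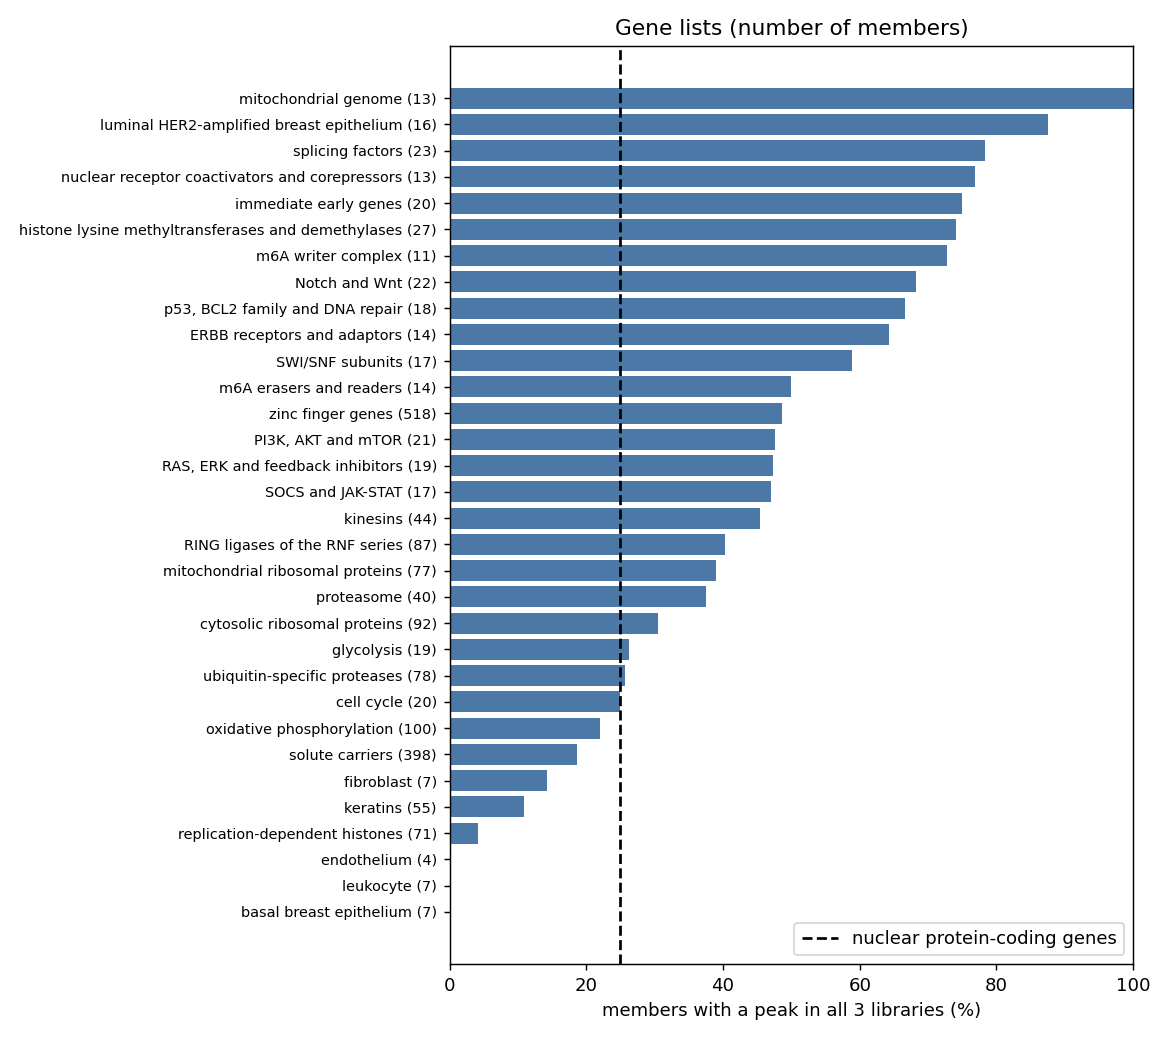
Percent of the members of each gene list with a peak in all 3 libraries (bars, number of members in brackets), with the dashed line at 25% for nuclear protein-coding genes. The mitochondrial genome stands at 100%, the luminal markers at 87.5%, and the lists of leukocyte, endothelial and basal markers at 0.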

How the data were processed

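Peaks of 3 IP libraries, each against its input, were used. The aligner HISAT2 is listed, with no version, per the submitters' processing notes, and the library kit keeps strand, per the labels' protocols; for peak caller and genome build the sources used here name nothing. Each peak's fold enrichment, a ratio of IP over input, is the authors' own. The p-value of each peak is as deposited, from the authors' peak calling, and the column header does not say whether it was adjusted. They were used to describe and rank peaks within a list. Positions, printed counting from 1, are those of the files, whose build is not named.

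Rows were joined into merged regions with Python 3.11.15 and pandas 2.3.3, and the joining was tested on simulated data. A region's class was the commonest among its rows, and its fold in a list was its highest. Of 7399 gene names, 6805 were current symbols in the GRCh38.p14 gene table and 485 matched 1 gene on the same chromosome by an older symbol. Transcript length and block count are other values of the deposited lists. The lines were not compared, so the tests are exact sign-flip tests within lists, whose smallest p is 0.25. Genes named were the first 10 by fold rank, p rank and number of recurring regions, the first 5 by blocks and length, and up to 3 per list by fold rank, with absent members of lists of up to 25 genes; ties in p rank were settled by fold rank. EGFR, ERBB3, JUN, FOS, the nuclear genes with p listed as 0 and some mitochondrial genes were named outside this rule, after their values were seen. Members of the m6A and marker lists were named by list. A few genes that the rule names are not reported here. Members and gene lists were chosen with earlier results of these data known. Sequences under the peaks and the m6A motif were not analysed here, since no genome of the files' build was used.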

Additional observations from a re-analysis of the deposited data

How the results depend on the processing

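For groups of cells, no paired analysis was possible because a single line with 3 libraries was described, with no second group to pair. The sign-flip tests did pair classes of peaks within each library, by the difference of their medians in the same list. Both differences of median fold kept their direction in all 18 alternatives, and their p cannot pass 0.05. The spanning-minus-coding difference lay between 0.20 and 0.63 and the several-minus-1-block difference between -1.40 and -0.63. Leaving out 1 library could reverse neither direction, since each held in all 3 libraries. The cut at a fold of at least 5 selects on fold itself. Those settings therefore show little about the direction. With a deposited p below 1e-05, 4381 regions recurred in all 3 libraries and the mean shares were 42.2% coding, 25.3% 3′ UTR, 24.1% spanning coding sequence and 3′ UTR, 1.65% 5′ UTR and 42.1% with several blocks, and 76.7% of genes had 1 region. With a fold of at least 5, 1748 genes and 1714 regions recurred, and the shares were 37.4%, 33.6%, 19.4%, 3.94% and 22.3%, with 81.3% of genes at 1 region. With equal numbers of peaks per library they were 45.6%, 28.1%, 18.5%, 2.51% and 34.96%. Merged regions gave 39.3%, 36.5%, 16.9%, 3.25% and 23.8%, and 1 row per distinct set of blocks gave 46.5% coding and 27.9% 3′ UTR. The cause of these shifts was not tested. Chosen after seeing the data, a second block of at least 20 bases gave 30.2% of peaks with several blocks, and regions in at least 2 libraries left 57.1% of genes with 1 region. Leaving out 1 library put that share between 63.2% and 64.9%, and kept 6 to 8 of the 10 genes first by fold rank, the lowest without replicate 3; ranking by p kept 0. Without 1 library, 5356 to 5584 genes and 7369 to 7816 regions had a peak in both that remained. With a reciprocal overlap of at least 50% of the bases, 5068 regions recurred. Leaving out the mitochondrial genome moved no value beyond the spread between libraries. Read depth is unknown and limits how many weak peaks each list holds.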

Other observations

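Genes with a peak in all 3 libraries were 25% of all nuclear protein-coding genes, with shares that varied between chromosomes. They made up 34.2% of the protein-coding genes of chromosome 14 (207 of 605), 33.4% of those of chromosome 16 (285 of 854), 32.2% of those of chromosome 20 (173 of 537) and 30.2% of those of chromosome 17 (353 of 1169), which carries ERBB2. The lowest shares of the chromosomes counted were 11.3% on chromosome X (96 of 848) and 18.9% on chromosome 6 (198 of 1049). All others counted lay between 20.4% on chromosome 13 and 28.7% on chromosome 19. How many genes of each chromosome the cells express was not analysed here.

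A peak over at least 90% of a listed transcript was found in all 3 libraries for 44 genes, 11 of them in the mitochondrial genome. Outside the mitochondrial genome, such transcripts had a median length of 600.0 bases in replicate 1, against 3150 bases for all listed rows. In 114 merged regions, rows of more than 1 gene were joined; the largest held 21 genes, all of the protocadherin gamma cluster, whose isoforms share their last exons.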
